A study of Homo sapiens with 8 samples.

Results

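Nonsense-mediated decay (NMD) is the surveillance pathway that degrades mRNAs whose translation stops at a premature termination codon, and 9 genes that encode its factors were followed here from normoxic to hypoxic SQ20B cells. The genes were UPF1, UPF2, UPF3A, UPF3B, SMG1, SMG5, SMG6, SMG8 and SMG9. They were taken by gene name, a rule that uses no measured value, though results of these data were known when the set was chosen. Their RefSeq transcripts made up 12 of the 24812 entries of the deposited expression table, or 9 of 14528 named genes. SQ20B is an established human cell line from a head and neck squamous cell carcinoma. It was sequenced as poly(A)-selected, strand-specific RNA from 4 normoxia samples and from 4 hypoxia samples kept in 0.5% O2 for 16 h. The labels name no other treatment and a single line. Their protocol text on low oxygen is repeated for the normoxia samples, which were grouped by the source named in their labels.

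Premature stop codons are recognized when a ribosome terminates upstream of an exon junction complex, a set of proteins left on the mRNA by splicing. UPF1, an RNA helicase, is then bridged to the junction complex by UPF2 and a UPF3 protein and is phosphorylated by the kinase SMG1, whose activity SMG8 and SMG9 regulate. Phosphorylated UPF1 recruits SMG6, which cuts the mRNA, and SMG5, which helps bring in dephosphorylation and further decay. Hypoxic and other stressed cells are known to inhibit the pathway when eIF2α is phosphorylated, and several NMD factor mRNAs are themselves targets of NMD. The comparison below asks whether the mRNAs that encode the factors differed between the conditions.

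The table gives 1 FPKM value per condition, pooled by the authors over its 4 samples. FPKM counts fragments per kilobase of transcript, scaled by the mapped fragments of the library, so levels can be set side by side between genes of different length. Single samples and read depths were not analysed here, so no value has a replicate spread, interval or p-value beside it, and every difference below is a description of these pooled values. The change of a gene is the log2 of hypoxia FPKM over normoxia FPKM, with 0.1 added to each, after summing its listed transcripts. The 12106 genes that averaged 0.5 FPKM or more across normoxia and hypoxia served as the background. Their median log2 change was -0.070, with quartiles at -0.36 and 0.24. Of the squamous epithelial markers looked up, 5 of 6 passed 0.5 FPKM, with summed levels of 513 FPKM in normoxia and 559 in hypoxia, and KRT14 was not among the entries. KRT5 made up most of the sum, at 398 FPKM in normoxia and 442 in hypoxia. KRT17 and TP63 were also higher in hypoxia, whereas KRT6A (5.10 and 3.26 FPKM) and DSG3 (16.4 and 12.8) were lower. Of 5 fibroblast and 4 leukocyte markers, 3 of each were not among the entries and the others were below 0.5 FPKM. Of 3 endothelial markers 2 were not among the entries, and CDH5 passed, at 4.78 FPKM in normoxia and 2.83 in hypoxia.

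All 9 factors passed the limit of 0.5 FPKM, and their changes lay on both sides of 0. The median log2 change of the factors was -0.050, close to that of all genes, with 5 lower and 4 higher in hypoxia, and 56.4% of all genes were lower. Their changes ran from -0.38 for SMG8 to 0.45 for SMG1. No factor differed by 1.5-fold or more, a size reached downward by 11.2% of all genes and upward by 9.95%. At a log2 change of 0.32 or more in size, SMG8 was the single factor lower and SMG1 the single factor higher, where 27.8% of all genes were lower and 20.6% higher by that much. SMG8 did not reach this size under the other 3 scalings described further on, with -0.315 when the median of all genes was set to 0, -0.29 with quantile normalization and -0.16 with columns scaled to equal sums. Factors higher by that much numbered 2, 1 and 3 in the same order, where 24.4%, 23.8% and 34.9% of all genes were. Of all genes, 22.7%, 20.9% and 13.1% were lower by that much. Of the 9 factors, 6 lay between the quartiles of all genes, SMG8 lay below them, and SMG6 and SMG1 lay above.

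**Figure D1:**
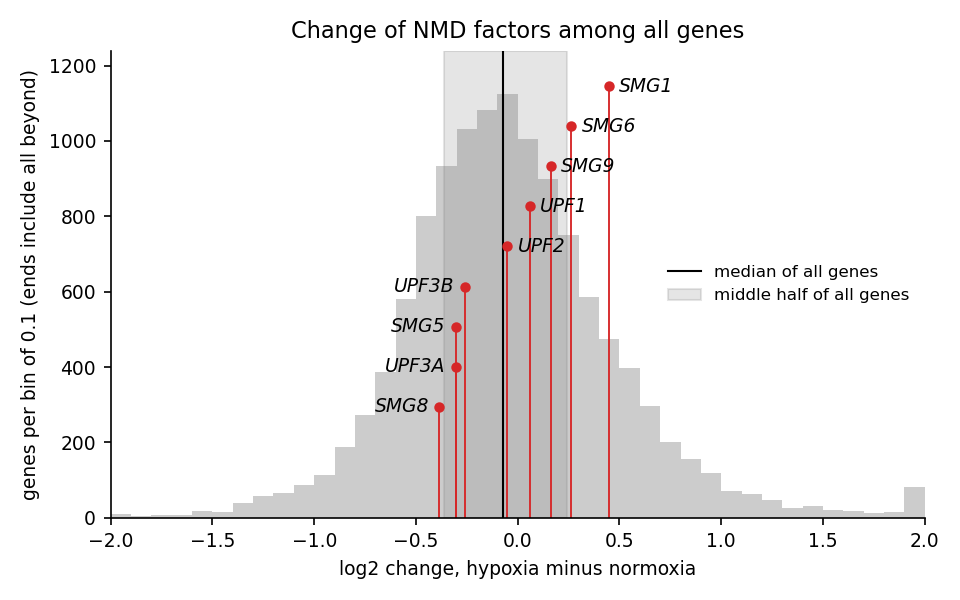
Log2 change from normoxia to hypoxia of each NMD factor (red pins, whose heights only separate the labels) over the histogram of the 12106 genes that averaged 0.5 FPKM or more, with their median (black line) and the range between their quartiles (shaded). SMG8, at -0.38, falls just left of the shaded range, and SMG6 (0.26) and SMG1 (0.45) fall to its right.

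The levels of the factors spread more widely than their changes. UPF2 had the highest level in both conditions, 23.8 FPKM in normoxia and 23.0 in hypoxia, and SMG9 the lowest, 3.31 and 3.72 FPKM. The highest level was 7.19 times the lowest in normoxia and 6.18 times in hypoxia. In normoxia the order below UPF2 was SMG5, SMG8, SMG1, UPF3A, UPF3B, SMG6, UPF1 and SMG9. In hypoxia SMG1 stood above SMG8, and the rest of the order was as in normoxia. Since no spread is known, it cannot be said which neighbours in this order differ. Added together, the factors amounted to 101 FPKM in normoxia and 94.6 in hypoxia.

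**Figure D2:**
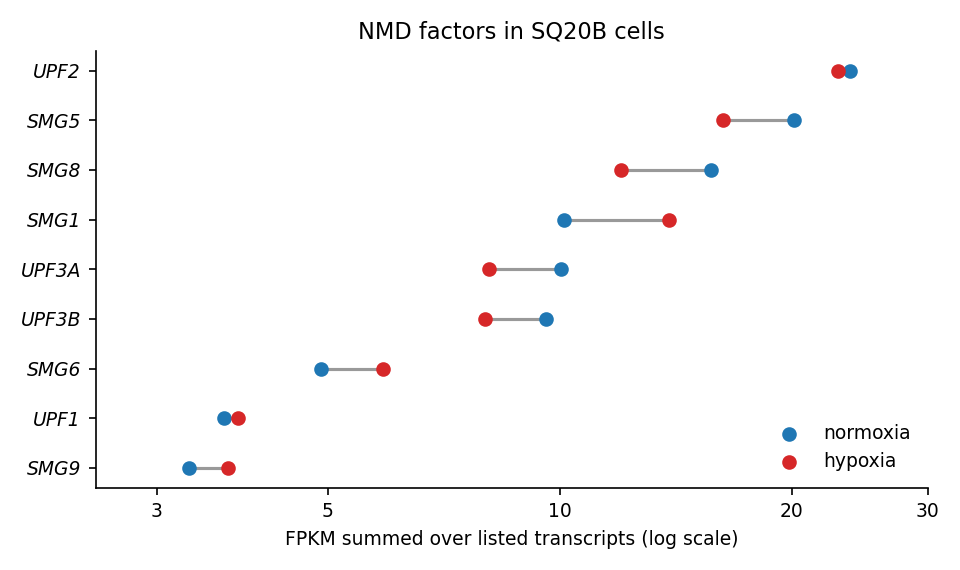
FPKM of each NMD factor, summed over its listed transcripts, in normoxia (blue) and hypoxia (red), 1 pooled value per condition without error bars, on a log scale. UPF2 is at the top near 23 FPKM in both conditions, SMG8 and SMG1 exchange places, and SMG9 is at the bottom between 3.31 and 3.72 FPKM.

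SMG1 is the kinase that phosphorylates UPF1 and had the largest change among the factors. It lies on chromosome 16 of hg19 (18816175 to 18937726) and was listed with 1 transcript, NM_015092, whose level was 10.1 FPKM in normoxia against 13.9 in hypoxia, 1.36-fold higher. Its log2 change of 0.45 was greater than that of 85.2% of all genes. Against the 3781 genes with a mean FPKM within 2-fold of its own, whose median change was -0.068, it stood at percentile 88.3.

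The value of SMG1 needs a caution about sequence, because human chromosome 16 carries several partial copies of the gene. The pseudogenes SMG1P1, SMG1P3, SMG1P5 and SMG1P7 were listed as noncoding transcripts. Alignment of the 16062 bases of the annotated SMG1 mRNA to their hg19 loci covered 30.7% of it at SMG1P1 (95.5% identity), 30.8% at SMG1P3 (94.4%), 30.5% at SMG1P5 (94.5%) and 5.11% at SMG1P7 (92.9%). Of all stretches of 50 bases in the SMG1 mRNA, 11.7% occurred without a mismatch at 1 or more of 7 annotated SMG1 pseudogene loci, and of stretches of 100 bases, 4.28% did. Exon 26 of SMG1 (chr16:18871989-18872098 of GRCh37, the build of hg19, minus strand, coding) shows how alike the copies can be. The exon was chosen because it aligned whole and without gaps at all of the listed pseudogenes, so it does not stand for the whole mRNA. It is given below 5′ to 3′ with its counterparts in the pseudogenes, which lie at chr16:22500527-22500636 (plus strand, SMG1P1), chr16:21460910-21461019 (minus, SMG1P3), chr16:30281377-30281486 (minus, SMG1P5) and chr16:70256274-70256383 (minus, SMG1P7), and capitals mark bases that differ from SMG1.
SMG1: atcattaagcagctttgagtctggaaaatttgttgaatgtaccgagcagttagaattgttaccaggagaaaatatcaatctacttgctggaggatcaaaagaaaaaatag
SMG1P1: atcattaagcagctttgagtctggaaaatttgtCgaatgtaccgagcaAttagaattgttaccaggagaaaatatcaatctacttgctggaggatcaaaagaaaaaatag
SMG1P3: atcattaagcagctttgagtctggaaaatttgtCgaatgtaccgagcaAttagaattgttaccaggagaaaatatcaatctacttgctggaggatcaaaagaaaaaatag
SMG1P5: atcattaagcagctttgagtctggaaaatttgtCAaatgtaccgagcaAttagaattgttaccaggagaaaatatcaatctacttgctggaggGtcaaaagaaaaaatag
SMG1P7: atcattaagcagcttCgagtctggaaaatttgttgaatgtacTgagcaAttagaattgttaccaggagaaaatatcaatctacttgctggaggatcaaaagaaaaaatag

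In these 110 bases SMG1P1 and SMG1P3 each differed from SMG1 at the same 2 positions, SMG1P7 at 3 and SMG1P5 at 4. A fragment lying within this exon differs between the copies by no more than these bases. The pseudogenes themselves were low. SMG1P3 had the highest level, 2.00 FPKM in normoxia and 2.13 in hypoxia (log2 change 0.090), followed by SMG1P7 with 1.15 and 0.948 (-0.26), SMG1P1 with 0.793 and 0.838 (0.072) and SMG1P5 with 0.559 and 0.607 (0.10). None of the copies had a change as large as that of SMG1. When SMG1 and its listed copies were added, the level was 14.6 FPKM in normoxia and 18.4 in hypoxia (log2 change 0.33). How Cufflinks divided shared fragments between SMG1 and these loci was not tested.

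SMG8 and SMG9 form a complex with SMG1 and regulate its kinase activity, and these partners had changes of opposite sign. SMG8, on chromosome 17 (57287371 to 57292611), had 15.7 FPKM in normoxia against 12.0 in hypoxia, 1.31-fold lower, with a log2 change of -0.38. This was the lowest of the 9 factors, yet 23.2% of all genes had a lower one. SMG9, on chromosome 19 (44235301 to 44259142), had 3.31 and 3.72 FPKM, a log2 change of 0.16. SMG8 thus went from 1.55 times the level of SMG1 in normoxia to 0.865 times in hypoxia, and from 4.74 to 3.23 times that of SMG9. SMG1 went from 3.06 to 3.73 times SMG9. Such ratios within a condition are not altered when a column is multiplied by a constant, but quantile normalization does alter them.

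UPF1, the helicase on which the pathway converges, was nearly level in the columns as deposited. Its transcript NM_002911, on chromosome 19 (18942744 to 18979039), had 3.66 FPKM in normoxia and 3.82 in hypoxia (log2 change 0.060). UPF1 was thus one of the least abundant of the factors, with only SMG9 below it, and 31.0% of all genes had a lower mean level. With the median of all genes set to 0 the log2 change of UPF1 was 0.13. It was 0.074 with quantile normalization and 0.28 with columns scaled to equal sums. UPF2, the adaptor between UPF1 and the UPF3 proteins, lies on chromosome 10 (11962021 to 12085169) and went from 23.8 to 23.0 FPKM (-0.050). The sign of this small value was not stable: it was 0.019 when the median of all genes was set to 0, 0.081 with quantile normalization and 0.17 with columns scaled to equal sums. UPF2 was 6.49 times as abundant as UPF1 in normoxia and 6.01 times in hypoxia.

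UPF3A and UPF3B are paralogs that link UPF2 to the exon junction complex, UPF3B being the more active in NMD. UPF3A, on chromosome 13 (115047059 to 115071291), had 10.03 FPKM in normoxia and 8.10 in hypoxia (log2 change -0.30). For UPF3B, on chromosome X (118967989 to 118986991), the values were 9.60 and 7.997 FPKM (-0.26). In the columns as deposited, both were lower in hypoxia by similar amounts, 1.24-fold and 1.20-fold. With columns scaled to equal sums, UPF3A and UPF3B had log2 changes of -0.082 and -0.038, and with quantile normalization -0.27 and -0.22. UPF3B stood at 0.958 times the level of UPF3A in normoxia and 0.987 times in hypoxia.

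UPF2, UPF3A and UPF3B were the 3 factors listed with 2 transcripts, and the other 6 had 1 each. In UPF2, NM_015542 carried 97.6% of the FPKM in normoxia and 95.9% in hypoxia, at 23.2 and 22.01 FPKM. The minor transcript NM_080599 went from 0.575 to 0.944 FPKM (log2 change 0.63) and depended on the constant added to FPKM: with 0.1 added it was the largest of the 12 transcripts, and with 1 added it was 0.30, below the 0.42 of the SMG1 transcript. In UPF3A the share of NM_023011 was 61.3% in normoxia and 65.8% in hypoxia. Its level went from 6.15 to 5.33 FPKM (log2 change -0.20) and that of NM_080687 from 3.88 to 2.77 FPKM (-0.47). With columns scaled to equal sums, these log2 changes were 0.020 and -0.25. The UPF3B transcripts kept nearly the same shares, 64.8% and 66.5% for NM_023010 (6.23 and 5.31 FPKM) and the remainder for NM_080632 (3.38 and 2.68 FPKM). Over 1737 genes with exactly 2 listed transcripts, each transcript averaging 0.5 FPKM or more, the median shift in share was 2.52 percentage points and the upper quartile 5.52. The shift of UPF3A was 4.52 points, that of UPF2 1.70 and that of UPF3B 1.64, so all 3 lay below that upper quartile.

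**Figure D3:**
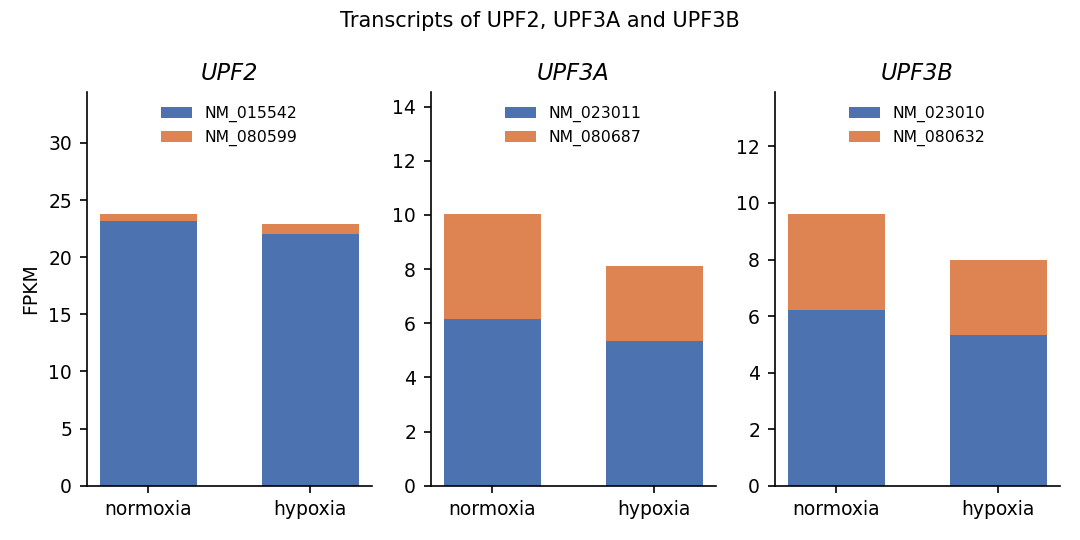
FPKM of the 2 listed transcripts of UPF2, UPF3A and UPF3B (stacked bars from 0, with a vertical scale of its own for each gene) in normoxia and hypoxia, 1 pooled value per condition without error bars. NM_015542 makes up nearly all of UPF2, and in UPF3A the upper segment, NM_080687, shrinks from 3.88 to 2.77 FPKM.

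SMG5 and SMG6 act downstream of phosphorylated UPF1 by separate routes, and their changes had opposite signs. SMG5, which helps bring in a phosphatase and decay enzymes, lies on chromosome 1 (156219015 to 156252620) and had 20.1 FPKM in normoxia and 16.3 in hypoxia (log2 change -0.30). For SMG6, the endonuclease that cuts near the stop codon, on chromosome 17 (1963133 to 2207069), the values were 4.90 and 5.91 FPKM, a log2 change of 0.26. SMG5 was 4.11 times as abundant as SMG6 in normoxia and 2.76 times in hypoxia. In the annotation of GRCh37, an unnamed protein-coding gene, ENSG00000265303, overlaps 13.1% of the exonic bases of SMG8 on the same strand, where strand cannot separate their fragments, and exons of HIC1 on the opposite strand overlap 29.8% of the exonic bases of SMG6. HIC1 was not among the entries of the table, and whether its fragments were kept apart by strand was not tested.

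How the pooled columns are scaled decides some of these signs. The FPKM values of all entries added up to 536005 in normoxia and 458431 in hypoxia, and scaling both columns to the same sum raises hypoxia against normoxia by 0.23 on the log2 scale before the 0.1 is added, which moves the median log2 change of all genes from -0.070 to 0.15 and leaves 36.3% of them below 0. On that scale 4.96% of all genes were at least 1.5-fold lower and 18.2% at least 1.5-fold higher, and SMG1, with a log2 change of 0.67, became the single factor past 1.5-fold. SMG8, UPF3A, SMG5 and UPF3B were below 0 and SMG6, SMG9, UPF1 and SMG1 above 0 under each of the 4 scalings, and UPF2 alone changed sign. With columns scaled to equal sums, however, UPF3A (-0.082), SMG5 (-0.079) and UPF3B (-0.038) were close to 0, and SMG8 had -0.16.

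**Figure D4:**
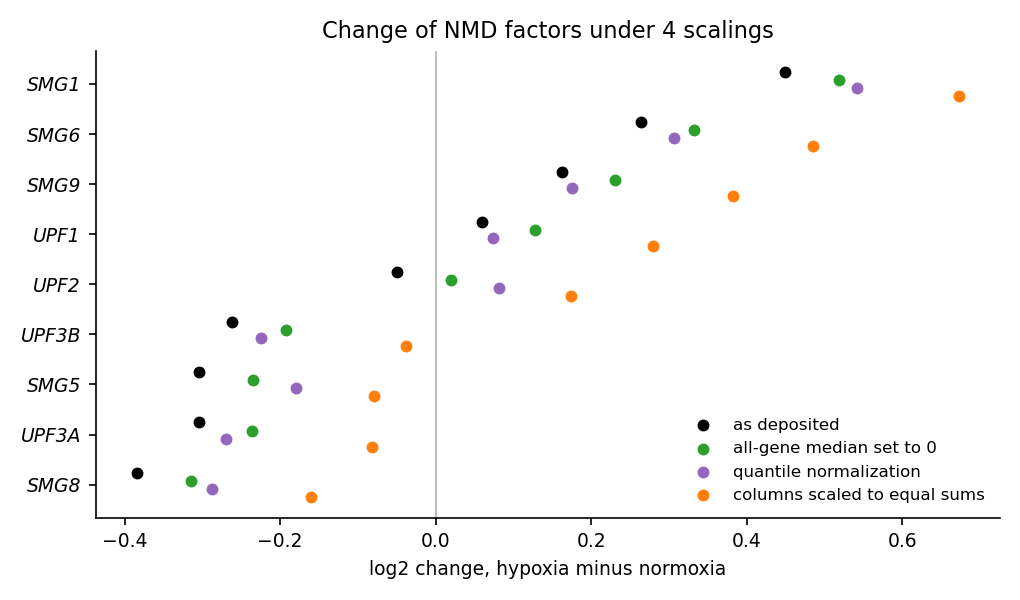
Log2 change of each NMD factor with the FPKM columns as deposited (black), with the median of all genes set to 0 (green), after quantile normalization (purple) and with the columns scaled to equal sums (orange). The points of UPF2 lie on both sides of 0, and all points of SMG1 lie above 0.4.

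Further genes of the pathway were taken from lists by role, and their counts are of genes that averaged 0.5 FPKM or more. The exon junction complex and its periphery mark where introns were removed. Of 9 such genes that passed, 7 were lower and 2 higher in hypoxia, where 56.4% of all genes were lower. The median log2 change of the 9 was -0.39. MAGOHB, a core subunit, was lowest and the only one past 1.5-fold, a size reached downward by 11.2% of all genes, at 23.7 FPKM in normoxia and 13.5 in hypoxia (-0.80), followed by CASC3 at 12.0 and 8.51 FPKM (-0.49). PNN and ACIN1, peripheral splicing-associated proteins, were higher (0.25 and 0.24), and SAP18 had -0.30. After scaling to equal sums, 7 of the 9 were still below 0, as were 36.3% of all genes. On that scale 0 of the 9 were at least 1.5-fold lower, as were 4.96% of all genes.

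Release factors and the proteins at the cap and the poly(A) tail frame the termination event that NMD judges. All 6 that passed were lower in hypoxia, as were 56.4% of all genes, and the median log2 change of the 6 was -0.41. ETF1, the release factor eRF1 that reads stop codons, was at 185 FPKM in normoxia and 101 in hypoxia (-0.88). It was the only gene of the list past 1.5-fold, a size reached downward by 11.2% of all genes. The nuclear cap-binding subunits NCBP2 and NCBP1 had -0.46 and -0.40. PABPC1, the major poly(A)-binding protein, was close to level, at 190 and 179 FPKM (-0.080), and GSPT1, the release factor eRF3, had -0.20. On the scale of equal sums, 4 of the 6 were below 0, as were 36.3% of all genes, and 1 was at least 1.5-fold lower, as were 4.96%.

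The enzymes that degrade the marked mRNA work from either end of it. For decapping and digestion from the 5′ end, 3 of 5 genes were lower and 2 higher, where 56.4% of all genes were lower. The median log2 change of the 5 was -0.029. None passed 1.5-fold, a size reached downward by 11.2% of all genes and upward by 9.95%. With columns scaled to equal sums, 1 of the 5 was below 0, as were 36.3% of all genes. XRN1, the exonuclease of this route, had 11.4 FPKM in normoxia and 13.6 in hypoxia (0.25), EDC3 had 0.089, and DCP2, the decapping enzyme, had -0.029. DCP1A had -0.099, and EDC4, a scaffold of the decapping complex, was lowest at -0.56. For the exosome, which degrades RNA from the 3′ end, with its SKI cofactors, 14 of 15 genes were lower, as were 56.4% of all genes. The median of the 15 was -0.59. At least 1.5-fold lower were 8 of them, EXOSC4 (-1.25), EXOSC6 (-0.99), DIS3L (-0.97), EXOSC2 (-0.93), EXOSC9 (-0.75), EXOSC7 (-0.72), EXOSC5 (-0.62) and EXOSC1 (-0.59), whereas 11.2% of all genes were lower by that much. EXOSC2 was at 47.7 FPKM in normoxia and 25.1 in hypoxia, and DIS3L, a cytoplasmic exosome nuclease, at 32.002 and 16.3. EXOSC10, the nuclear exosome nuclease, had -0.18, SKIC3 had -0.14, and the helicase SKIC2 was the only gene of the list that was higher, with 4.87 and 5.41 FPKM (0.15). With columns scaled to equal sums, 12 of the 15 were below 0, as were 36.3% of all genes, and 4 were at least 1.5-fold lower, as were 4.96%.

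A list of further NMD and Staufen decay factors was mixed, with 7 of 11 genes lower, where 56.4% of all genes were. The median log2 change of the list was -0.21. RUVBL1 and RUVBL2, ATPases that act in the assembly of kinases such as SMG1, had 90.7 FPKM in normoxia and 45.3 in hypoxia (percentile 2.61 of the changes of all genes) and 19.8 and 11.03 FPKM (-0.84). GNL2, a nucleolar GTPase, had -0.66. These 3 of the 11 genes were at least 1.5-fold lower, as were 11.2% of all genes. MOV10, an RNA helicase that associates with UPF1, had 8.39 and 13.8 FPKM (0.71), followed by STAU2 (0.41) and NBAS (0.29). MOV10 was the only one at least 1.5-fold higher, 1 of 11 against 9.95% of all genes. With columns scaled to equal sums, 5 of the 11 were below 0, as were 36.3% of all genes. On that scale 2 were at least 1.5-fold lower and 2 higher, against 4.96% and 18.2% of all genes.

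Loss of NMD activity is known to raise certain endogenous transcripts, among them noncoding hosts of small nucleolar RNAs and stress response mRNAs with upstream open reading frames. Of 14 genes listed for such transcripts, each summed over all its listed transcripts, 13 were lower in hypoxia and 1 was higher. Of all genes 56.4% were lower, and the median log2 change of the 14 was -0.43. SNHG15 was lowest, at 14.2 FPKM in normoxia and 4.41 in hypoxia (-1.66), and SNHG1 was at 439 and 247 FPKM (-0.83). GADD45A (-0.81), ATF4 (-0.79) and DDIT3 (-0.76) were also at least 1.5-fold lower, which made 5 of 14 against 11.2% of all genes. With columns scaled to equal sums 3 passed, against 4.96% of all genes, and with quantile normalization 3, against 8.43%. ATF4 was at 330 FPKM in normoxia and 191 in hypoxia. GADD45B was higher, at 6.28 and 9.95 FPKM (0.66), and ASNS (-0.058) and CARS1 (-0.13) were near 0. With columns scaled to equal sums 10 of the 14 were below 0, as were 36.3% of all genes, and with quantile normalization 10 of the 14, as were 48.5%. ATF4, ATF3, DDIT3, ASNS and CARS1 also belong to the integrated stress response, so their levels answer to transcription as well as to decay, which cannot be told apart in these values. The same holds for the other genes of the list, since only levels were measured and NMD activity was not tested.

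**Figure D5:**
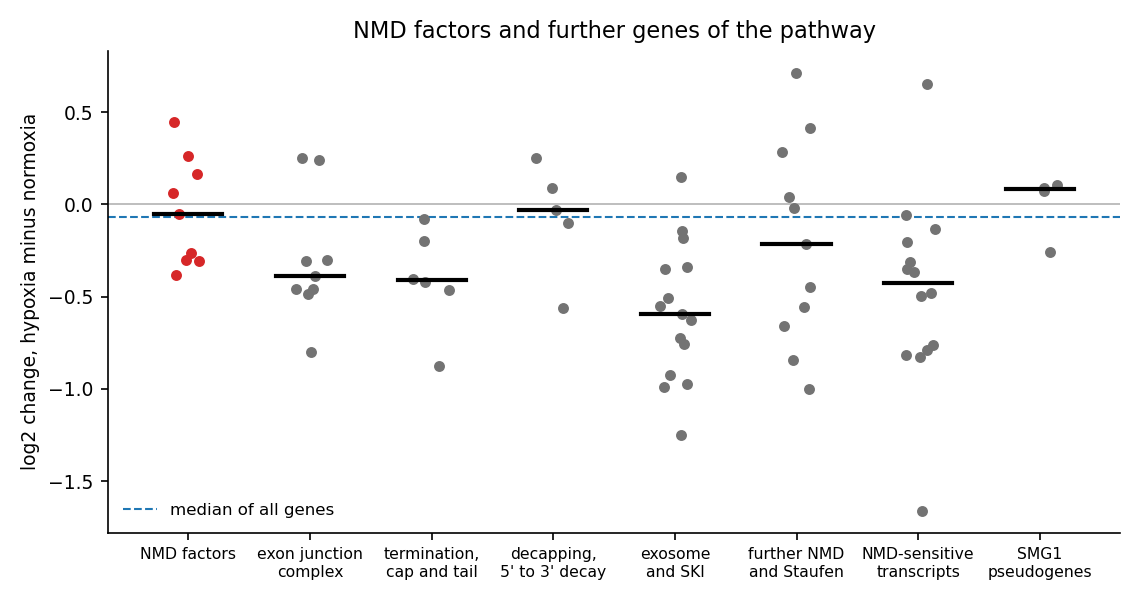
Log2 change from normoxia to hypoxia of the NMD factors (red) and of the genes that averaged 0.5 FPKM or more in each further list (grey), 1 point per gene, with the median of each list (black bar) and that of all genes (dashed line). The bar of the NMD factors, at -0.050, lies near the dashed line at -0.070, and that of the exosome and SKI list lies at -0.59.

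Promoter sequence was available from RefSeq (GRCh38.p14) for 8 of the 9 factors, all but SMG8, as 15 windows from 250 bases upstream of an annotated start to 50 bases downstream. ACGTG, a form of the core of the element that hypoxia-inducible factors bind, was searched on both strands, and other forms were not. It occurred in 5 of the 15 windows and in 21.4% of 35116 windows of all genes. In windows at the annotated gene start it was present for SMG1, UPF2 and UPF3B, which had log2 changes of 0.45, -0.050 and -0.26, so a match was found at genes of either sign. The E-box CACGTG, of which the searched core is a part, occurred in 2 of the 15 windows and in 7.26% of all. The 3 windows are printed 5′ to 3′ on the strand of the gene to show where the letters lie, chr16:18926359-18926658 (minus strand), chr10:12043121-12043420 (minus) and chrX:119852914-119853213 (minus) of GRCh38.p14, with ACGTG or its reverse complement in capitals.
SMG1: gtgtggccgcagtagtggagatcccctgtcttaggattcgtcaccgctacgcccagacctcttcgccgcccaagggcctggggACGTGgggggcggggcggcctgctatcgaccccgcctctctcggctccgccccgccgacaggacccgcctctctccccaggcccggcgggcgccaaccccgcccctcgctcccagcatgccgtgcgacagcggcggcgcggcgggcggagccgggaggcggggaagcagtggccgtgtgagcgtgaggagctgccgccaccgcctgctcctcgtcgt
UPF2: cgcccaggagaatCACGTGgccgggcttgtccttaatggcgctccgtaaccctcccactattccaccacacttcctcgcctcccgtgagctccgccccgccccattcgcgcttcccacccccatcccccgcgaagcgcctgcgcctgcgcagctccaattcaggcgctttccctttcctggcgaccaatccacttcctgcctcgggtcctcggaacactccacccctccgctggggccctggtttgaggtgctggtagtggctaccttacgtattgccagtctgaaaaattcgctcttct
UPF3B: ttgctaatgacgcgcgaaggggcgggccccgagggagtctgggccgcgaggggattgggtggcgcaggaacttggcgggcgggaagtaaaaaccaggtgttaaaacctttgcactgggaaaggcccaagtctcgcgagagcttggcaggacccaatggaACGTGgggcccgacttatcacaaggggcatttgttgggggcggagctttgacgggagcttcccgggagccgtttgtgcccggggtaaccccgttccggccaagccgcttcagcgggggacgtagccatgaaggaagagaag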

How the data were processed

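Poly(A)-selected stranded RNA from 4 normoxia and 4 hypoxia SQ20B samples had been aligned by the authors with STAR 2.3.0.1 to hg19, and expression had been computed with the Cufflinks suite 2.1.1 and RefSeq annotation under standard parameters, as the paper and the submitters' processing notes state. The FPKM values were used as deposited, 1 per condition, pooled by the authors over 4 samples. The table also holds the authors' own fold change, test statistic, p-value and q-value per transcript, which were not used. The paper states an average read depth, but the table holds neither counts nor the depth of each sample, so neither intervals nor floors were computed. Library strand was marked, but strand handling in counting is not given in the sources used here.

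Transcripts were paired with gene symbols through RefSeq of GRCh38.p14 (names only), which matched 24293 of 24812 entries (97.9%), and FPKM was summed per gene. Locus starts in the table count from 0, since 11325 of them matched an annotated GENCODE start after adding 1 and 1212 without, and 1 was added. Genes counted as differing had a change of at least 1.5-fold (a log2 change of 0.58), and a smaller limit, a log2 change of 0.32, was applied separately. The planned design had no test, because each condition has 1 value, and the calculation was tested on simulated data. Members and lists were chosen with earlier results of these data known. The genes named are all members with their transcripts, the SMG1 pseudogenes and, per list, the 3 highest and 2 lowest changes and up to 8 genes past 1.5-fold, and further values of the lists were added after they were seen. 1 gene counted in a list is not reported here by name. Alternatives changed the pseudocount, the FPKM limit, the scaling and the gene summary. Exons and gene overlaps came from GENCODE v44 on GRCh37, and SMG1 was aligned with BLAST 2.17.0. Python 3.11.15, numpy 2.4.6, pandas 2.3.3 and matplotlib 3.10.9 were used.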

Additional observations from a re-analysis of the deposited data

How the results depend on the processing

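No paired analysis was possible because the table has 1 pooled value per condition, and for the same reason no sample could be left out in turn. Without a spread between samples, a log2 value was counted as moved when it shifted by 0.1 or more. With 1 or 0.01 in place of 0.1 added to each FPKM, none of the 9 factors and no list median moved, and neither did they with no FPKM limit. With 1 added, the UPF2 transcript NM_080599 moved to 0.30. A limit of 1 FPKM moved only the median of the SMG1 pseudogenes, to -0.084.

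With columns scaled to equal sums all 9 factors moved, with quantile normalization 2 did, and with the median of all genes set to 0 none did. With columns scaled to equal sums, 1 factor passed 1.5-fold, upward, as did 18.2% of all genes. The median log2 change of the 9 factors was then 0.17, and the medians were -0.17 for the exon junction complex, -0.19 for termination, cap and tail, 0.20 for decapping, -0.37 for the exosome and SKI, 0.012 for further NMD factors, -0.20 for NMD-sensitive transcripts and 0.28 for SMG1 pseudogenes. With quantile normalization, 1 factor passed a log2 change of 0.32, upward, as did 23.8% of all genes. The median of the 9 factors was then 0.074, and the medians in the same order were -0.20, -0.23, 0.075, -0.41, -0.013 and -0.30. Setting the median of all genes to 0 changed the sign of UPF2, of the median of the 9 factors (0.019) and of the decapping median (0.041). Taking the highest transcript in place of the sum moved 1 of the 9 factors. The precision that depth gives to low values such as that of UPF2 NM_080599 was not computed, since the table holds no counts.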
